A study of Mus musculus with 2 samples.

Results

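Kit, Kitl, Edn1, Edn2, Ednra and Ednrb encode the ligands and receptors of the Kit and endothelin systems, and their levels were recorded in each class of epithelial cell of the newborn mouse hair follicle (HF). The 6 genes were chosen by symbol from the 32285 genes of the deposited count tables, where each had 1 row and was matched by its Ensembl identifier, and they had been picked with earlier results of these data known. All levels by class and cluster are therefore a description and carry no test. Levels are compared within a gene and not between genes, since they count 3′ ends. Kit signalling and endothelin signalling are best known in skin for the migration and survival of melanocytes, the pigment cells that settle in the hair bulb. Kitl, made by epithelial and dermal cells, binds the receptor tyrosine kinase Kit, and the endothelin peptides, cut from longer precursors by Ece1, bind the G protein-coupled receptors Ednra and Ednrb, of which Ednrb is the receptor of the melanocyte lineage. In the follicle, the germinative layer (GL) and the lower proximal cup (LPC) surround the dermal papilla and feed the inner root sheath (IRS), cortex (Cx) and medulla (Med), while the outer root sheath (ORS) encloses the shaft.

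Back skin of mice at postnatal day 1 was split into epidermis and dermis, and tdTomato-positive cells of the follicle-containing dermal fraction were sorted, with dead cells excluded, into 1 droplet library labelled WT and 1 labelled PADI4 cKO, both of batch 1. tdTomato marks cells in which K14-Cre, driven by the promoter of a keratin gene of basal epithelium, has acted. In the mice labelled PADI4 cKO this Cre acts on Padi4 fl/fl, which codes for a peptidylarginine deiminase. The Cre and tdTomato thus belong to both groups, while the labels call the other group only WT and its Padi4 allele is not given, and neither library's number of animals is stated. Each library held a comparable number of unique molecular identifiers (UMIs, 1 per captured mRNA molecule), 143938990 in WT and 143945294 in the other, and the filters of the study left 8070 and 7393 cells with medians of 14670 and 16208 UMIs.

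Several features of the libraries bear on every value that follows. With 1 library for each genotype there is no replicate, so no p-value was computed, genotype and animal cannot be told apart, and all intervals are for counting error only. The WT library held cells of both sexes, with Xist but no Y-linked gene detected in 26.1% of cells and the reverse in 62.3%, whereas in the library labelled PADI4 cKO these shares were 98.3% and 0%. The WT library therefore came from at least 1 female and 1 male animal, and WT cells can be split by sex to set a difference within WT beside the difference between the libraries. Padi4 itself gave 97 UMIs in WT epithelial cells and 92 in those labelled PADI4 cKO, and counts of 3′ ends do not show whether exons further upstream are missing. The libraries shared 14 cell barcodes, and leaving these out moved no result. Free RNA in the suspension was estimated at up to 7.89% of epithelial UMIs in WT and 6.73% in the other library. The estimate came from collagen and hemoglobin genes, in cells already limited to 1% hemoglobin UMIs and gated free of fibroblast-like cells. It is an average that does not bound free RNA in each cell, and the limits given below rest on it.

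Cells were assigned to classes by lists of marker genes, and levels are given as CPM, the UMIs of a gene summed over a class per 1000000 UMIs of that class. A cell took the list with its highest score, and none was taken by 1571 cells (19.5%) in WT and 1414 (19.1%) in the other library. The GL-like class held 1489 and 1582 cells, the LPC-like class 657 and 890, the ORS-like class 1408 and 1349, the IRS-like class 646 and 493, the Cx-like class 104 and 71 and the Med-like class 259 and 234. In the Med-like cells, its highest WT class, Padi4 gave 19 and 7 UMIs (4.40 and 1.59 CPM). In the GL-like cells it gave 34 and 39 UMIs (1.22 and 1.17 CPM). The labelled keratinocyte identity was checked with 4 genes that are on no marker list, chosen after the data had been seen. Over all cells Krt5, a basal keratin gene, was at 1383 CPM in WT and 1243 CPM in the other library, with a UMI in 96.3% and 97.7% of cells, and Trp63, an epidermal transcription factor gene, was at 597 and 616 CPM, with a UMI in 94.8% and 96.1%. Krt14 (85.3% and 83.8% of cells) and the desmosome gene Dsp (93.1% and 92.02%) were also found in most cells. Krt14 is no separate check, since the cells were sorted through K14-Cre. Krt5 was lower but not absent in the fibroblast-like cells, at 274 and 346 CPM, with a UMI in 53.1% and 56.5% of them. Krt14 was at 609 and 439 CPM there, against 1197 and 810 CPM over all cells. Dsp was at 139 and 151 CPM, against 432 and 334 CPM, and Trp63 at 171 and 202 CPM. These 4 genes thus do not set the fibroblast-like cells clearly apart. In the melanocyte-like cells it was at 287 and 669 CPM, with a UMI in 37.0% and 75% of them. The genes that led the classes, such as Krt71, Krt73 and Krt25 in the IRS-like and Krt32 and Krt35 in the Cx-like cells, are on the lists that gated them and check nothing. The Med-like name rests mainly on Mt4, Krtap8-1 and Foxq1, since Ppp1r1b was low, at 4.81 CPM, and Tchhl1 was at 0. Between 13.8% (ORS-like) and 30.8% (Cx-like) of the WT cells of these follicle classes lay within 0.1 of a gate. A few cells of other kinds passed the sort, among them 27 and 12 melanocyte-like and 49 and 23 fibroblast-like cells.

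Kit, the receptor on chromosome 5 (GRCm38 chr5:75574916-75656722, plus strand, 21 exons), was found in epithelial cells at low levels. Among the epithelial classes these were highest in the IRS-like, GL-like and Med-like cells. In the GL-like cells Kit was at 12.5 CPM in WT (95% Poisson interval 11.2 to 13.9, 347 UMIs) and at 10.4 CPM (9.33 to 11.5, 347 UMIs) in the library labelled PADI4 cKO. In the IRS-like cells it was at 13.6 CPM (11.5 to 16) and 16.2 CPM (13.6 to 19.0). The 2 classes overlapped in WT, and the Med-like cells, at 8.57 and 14.9 CPM, lay beside them. LPC-like cells, at 1.10 and 0.529 CPM, and ORS-like cells, at 0.648 and 0.463 CPM, lay far lower. By the estimate above, free RNA could have given up to 0.479 CPM to an average epithelial cell in WT and 0.436 CPM in the other library. The 4 values lay above that limit, and the interval of the WT LPC-like cells (0.616 to 1.82) lay wholly above it, while the other 3 intervals included it. A Kit UMI was seen in 13% of WT GL-like cells and 14.7% of WT IRS-like cells, at medians of 17292 and 15550.5 UMIs per cell, against 0.568% of ORS-like cells, at a median of 10555.5 UMIs. When each cell was thinned to 2000 UMIs these shares were 2.08%, 2.94% and 0.142%. The GL-like cells were 18.5% of the WT cells and held 35.1% of all Kit UMIs, while the 27 melanocyte-like cells, at 574 CPM, held 20.4%.

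Kit was far from uniform over the clusters as well. Unsupervised clustering, from which the 6 genes were left out, gave the highest Kit level of the epithelial clusters in cluster 8 (1195 cells), led by Pcsk2, Myb and Eda, of which Myb codes for a transcription factor of proliferating progenitors and Eda for the ligand of the ectodysplasin receptor. Kit was at 32.4 CPM in WT and 26.8 CPM in the library labelled PADI4 cKO in this cluster, and a Kit UMI was found in 28.3% and 30.4% of its cells. Cluster 10, also led by Myb, held 18.0 and 8.70 CPM, and cluster 12, led by the IRS keratins Krt73, Krt71 and Krt25, held 11.1 and 15.0 CPM. Cluster 7, led by Ednra, Odc1, Krtap8-1 and Mt4, held 8.02 and 8.80 CPM. The clusters led by the cortex keratin gene Krt35 (cluster 16, 6.02 and 1.88 CPM) and by Shh (cluster 13, 3.51 and 2.62 CPM) were lower, and the LPC-like cluster led by Frem1 and Sp5 (cluster 0) held 0.752 and 0.426 CPM.

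Kit RNA from melanocytes was set beside these values through the melanocyte marker list. In cluster 8 the 8 genes of this list summed to 110 CPM in WT and 146 CPM in the library labelled PADI4 cKO, nearly all of it Mitf (101 CPM over both libraries) and Dct (28.5 CPM), with Pmel at 0.9 CPM or less and Tyr, Tyrp1, Slc45a2 and Sox10 near 0. If every Dct UMI of cluster 8 had come with melanocyte RNA, at the ratio of Kit to Dct in the melanocyte-like cells, Kit would have been at 2.13 CPM in WT and 2.45 CPM in the other library, against the 32.4 and 26.8 CPM recorded. In cluster 7, where Dct was higher (42.5 and 51.2 CPM), Kit was lower. There the same ratio gives 3.22 and 4.36 CPM, beside 7.96 and 8.83 CPM in its epithelial cells. In the Shh cluster 13 the ratio gives 2.87 and 3.39 CPM, close to the 3.51 and 2.62 CPM recorded. In the LPC-like cluster 0 the WT level of Kit was 0.752 CPM, where the same ratio gives 1.80 CPM. The ratio was taken to be the same in all cells, and the source of the Kit UMIs was not tested.

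**Figure D1:**
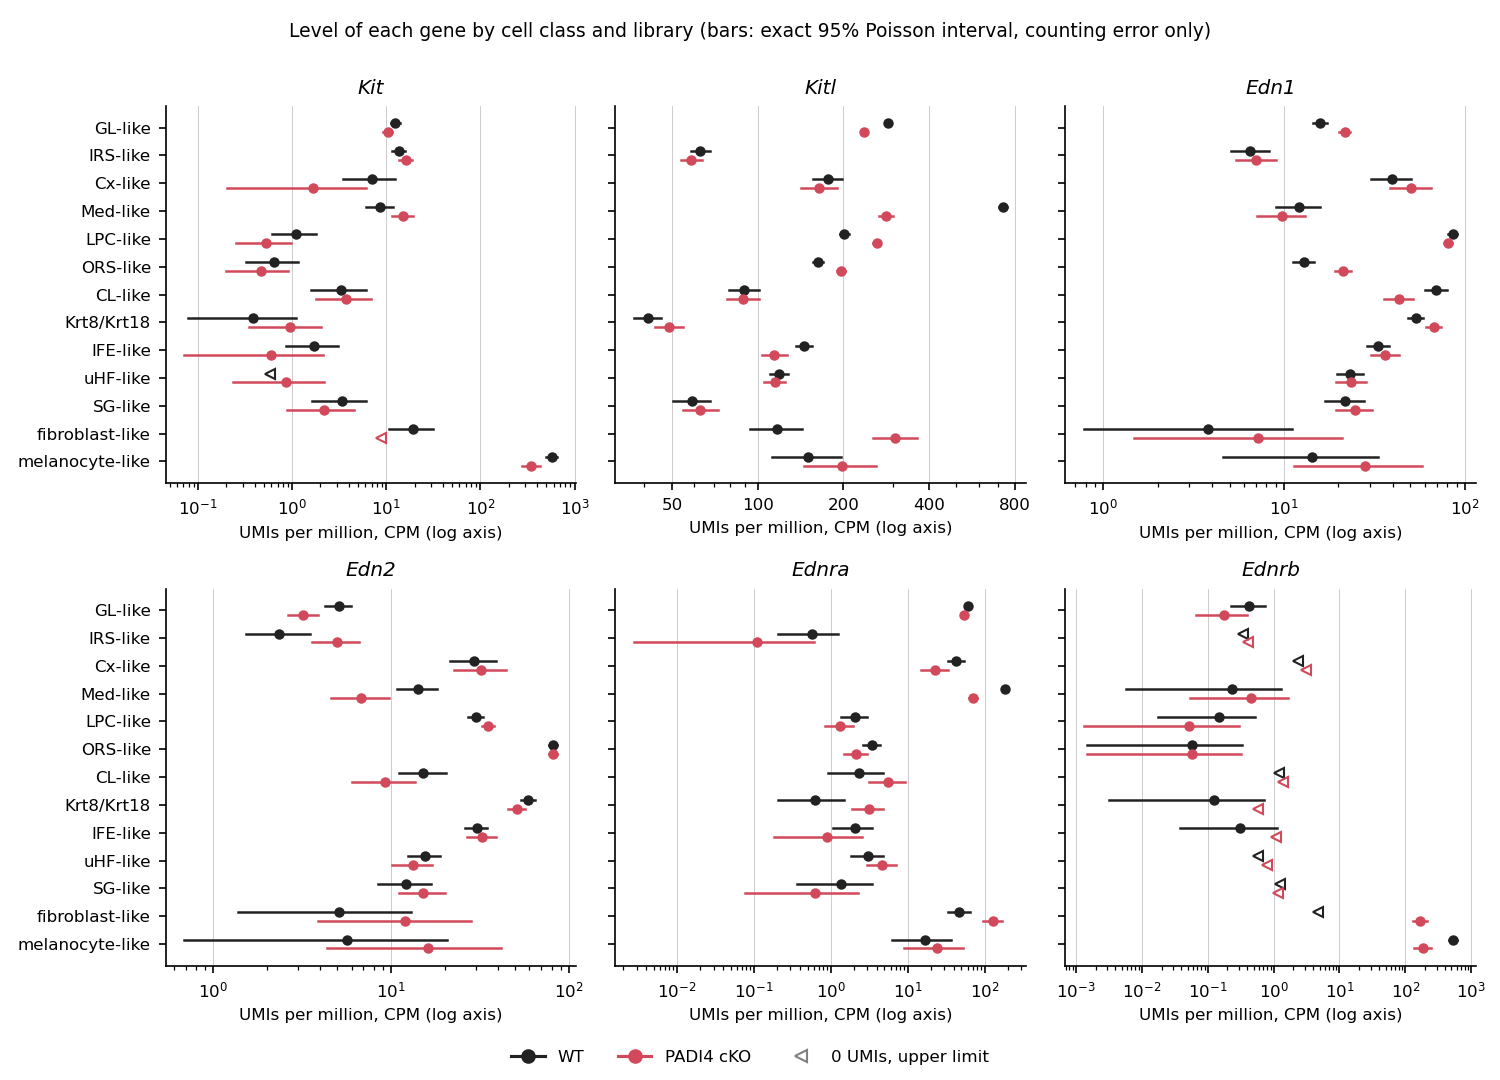
Level of each of the 6 genes (x axis, CPM, log scale) in 13 cell classes (y axis) for the WT library (black) and the library labelled PADI4 cKO (red). Points are summed levels, bars exact 95% Poisson intervals and open triangles upper limits for classes with 0 UMIs. Kit and Ednrb were highest in the melanocyte-like cells, Kit reached 12.5 CPM in WT GL-like cells, and Ednrb stayed below 1 CPM in every epithelial class where it was seen.

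Kitl (chr10:100015630-100100416, plus strand, 10 exons), the ligand of Kit, was by contrast found in each epithelial class. In WT its level ran from 41.2 CPM (36.8 to 45.9) in the cells with Krt8, Krt18 and Acta2 through 62.9 CPM in the IRS-like, 163 CPM in the ORS-like, 202 CPM in the LPC-like and 288 CPM (281 to 294) in the GL-like cells to 729 CPM (704 to 755) in the Med-like cells. In the library labelled PADI4 cKO the order was 48.7, 58.5, 196, 262, 236 and 283 CPM, so that LPC-like and GL-like cells changed places. A Kitl UMI was seen in 78.5% of WT GL-like and 84.0% of WT LPC-like cells. By cluster, Kitl was highest in cluster 7, with 670 CPM in WT and 401 CPM in the other library, where 92.7% and 88.3% of cells had a UMI. Cluster 8, where Kit was highest, held 136 and 149 CPM of Kitl, and the IRS cluster 12 held 58.6 and 47.4 CPM. The epithelial cells with the most ligand RNA and those with the most receptor RNA thus fell in different clusters.

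Edn1 (chr13:42301476-42307990) and Edn2 (chr4:120161206-120167360), each with 5 exons on the plus strand, code for the precursors of endothelin 1 and endothelin 2. The mature peptides are coded within exon 2 of each gene, at chr13:42303649-42303711 and chr4:120161951-120162013. The stretches are shown because the 2 ligands, whose RNAs were highest in different follicle cells, bind the same receptors. Capitals mark the 10 of 63 bases that differ, and these change 3 of the 21 residues:
Edn1: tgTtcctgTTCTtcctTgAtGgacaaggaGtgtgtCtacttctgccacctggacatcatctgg
Edn2: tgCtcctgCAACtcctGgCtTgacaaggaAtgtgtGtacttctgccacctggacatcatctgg

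Edn1 was highest at the follicle base, in the LPC-like cells, at 85.8 CPM (80.9 to 90.8) in WT and 81.2 CPM (77.2 to 85.3) in the library labelled PADI4 cKO. There 52.4% and 55.4% of cells carried a UMI, and the LPC-like cells, 8.14% of WT cells, held 28.9% of the Edn1 UMIs. The CL-like cells (companion layer, Krt75-positive) followed at 69.2 CPM in WT, then the cells with Krt8, Krt18 and Acta2 at 53.6 CPM. In the other library these last 2 classes stood in the reverse order, at 43.1 and 67.4 CPM. The GL-like cells, at 15.8 and 21.6 CPM, and the IRS-like cells, at 6.51 and 7.03 CPM, lay lower. By cluster, Edn1 reached 119 and 110 CPM in cluster 1, led by Chl1 and Slc25a48, and 97.6 and 118 CPM in cluster 11, led by Slit3, Phactr1 and Prss35, and in the Ednra-rich cluster 7 it was at 3.67 and 2.50 CPM.

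Edn2 was highest along the outer root sheath. The ORS-like cells held 81.6 CPM in WT (77.4 to 86.0, 1386 UMIs) and 81.8 CPM in the library labelled PADI4 cKO (77.6 to 86.2, 1413 UMIs), with a UMI in 42.5% and 43.7% of cells. The cells with Krt8, Krt18 and Acta2 followed at 59.2 and 51.1 CPM. IFE-like and LPC-like cells, at 30.3 and 29.9 CPM in WT, did not differ beyond their intervals, and the GL-like (5.07 and 3.20 CPM) and IRS-like cells (2.36 and 4.95 CPM) lay lowest. Clusters 9, 14 and 15 carried the most, with 124, 107 and 108 CPM in WT and 109, 106 and 119 CPM in the other library. Edn3, the third endothelin gene, gave 2 UMIs in all WT epithelial cells and 0 in those labelled PADI4 cKO, and 4 and 2 UMIs in the fibroblast-like cells.

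Ednra (chr8:77663031-77724464, minus strand, 8 exons), the receptor of endothelin 1 and endothelin 2, was, among the epithelial classes, highest in the Med-like cells in both libraries. Its WT level was 185 CPM (172 to 198) in the Med-like cells, 60.5 CPM (57.7 to 63.5) in the GL-like cells and 42.7 CPM (33.1 to 54.2) in the Cx-like cells. It was 3.41 CPM in the ORS-like, 2.05 CPM in the LPC-like and 0.566 CPM in the IRS-like cells. By the estimate above, up to 1.24 CPM could have come from free RNA in an average WT epithelial cell. GL-like cells held 55.3% and Med-like cells 26.2% of the WT Ednra UMIs, although the Med-like cells were 3.21% of the library. By cluster, 7 carried 183 CPM in WT and 138 CPM in the other library, and Ednra was the leading gene of that cluster although it took no part in the clustering. Cluster 16, led by Krt35, held 64.6 and 64.9 CPM, the Shh cluster 13 held 11.3 and 11.1 CPM and the Frem1 cluster 0 held 9.12 and 6.60 CPM.

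The clusters highest in Kit and in Ednra were different ones. Cluster 8, at 32.4 CPM of Kit, had 1.45 CPM of Ednra in WT and 0.216 CPM in the other library (15 and 3 UMIs), and cluster 10 had 2 and 1 UMIs. Cluster 12 had 8 and 0 UMIs of Ednra, the latter allowing up to 0.319 CPM by the limit of 3 counts. The GL list included both kinds of cell: 957 GL-gated cells fell in cluster 7 and 601 in cluster 8. Of the GL markers, Lef1 (1559 against 637 CPM), Msx1 (427 against 167 CPM) and Hoxc13 (294 against 60.6 CPM) were higher in cluster 7, and Cux1 (1298 against 3017 CPM) was higher in cluster 8.

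The stretch before the start site of Ednra is shown because this gene led the cluster in which both Ednra and Kitl were highest. It is from RefSeq (GRCm38.p6, chr8:77724453-77724702, minus strand, 250 bases), with its match to the core of the LEF/TCF motif in capitals:
Ednra: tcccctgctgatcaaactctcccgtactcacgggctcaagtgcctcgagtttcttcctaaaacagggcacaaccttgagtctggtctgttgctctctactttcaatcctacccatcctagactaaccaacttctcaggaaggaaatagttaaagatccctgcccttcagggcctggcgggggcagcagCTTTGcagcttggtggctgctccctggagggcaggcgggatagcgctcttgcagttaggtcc
The core CTTTG, on either strand, was found in the 250 bases before a start site of 4 of the 6 genes, which matched in the promoter table without exception, and of 52.2% of all 27025 genes there. Kitl and Ednrb had none, and the E-boxes CATGTG and CACGTG were found in 0 of the 6 and in 19.8% of all genes. These shares are descriptions of short windows, and no factor was measured.

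**Figure D2:**
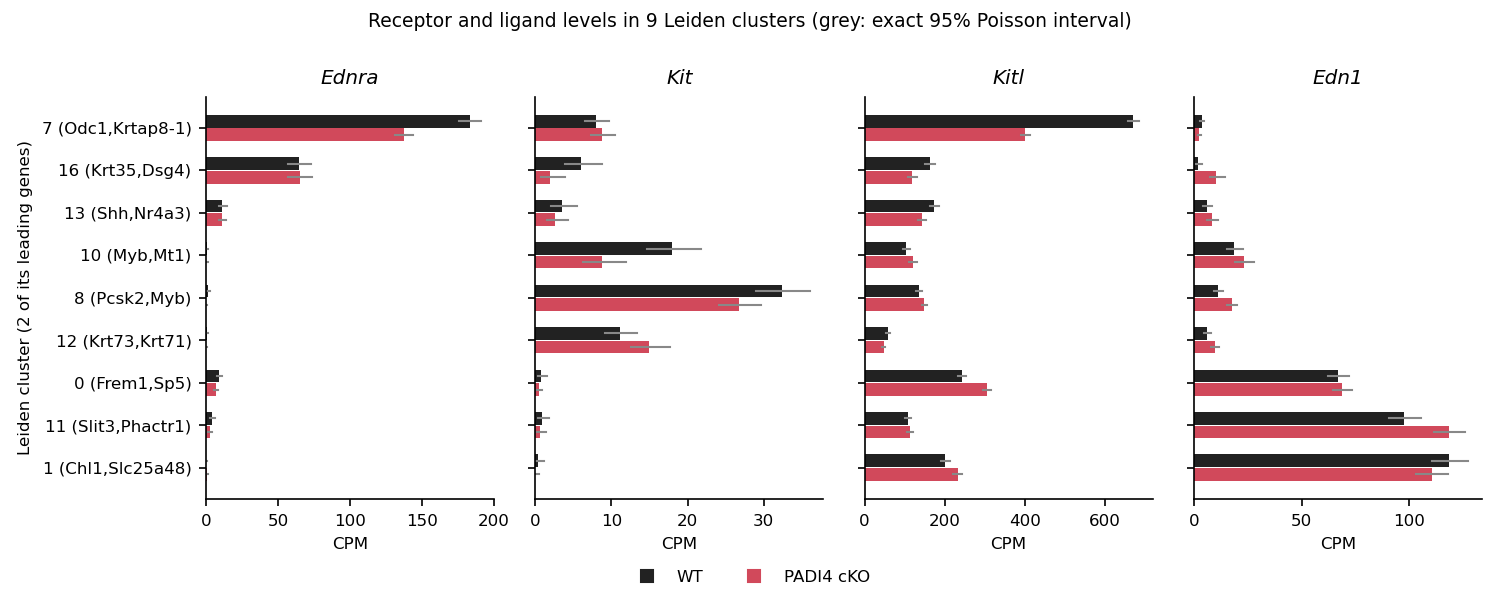
Levels of Ednra, Kit, Kitl and Edn1 (x axes, CPM, each starting at 0) in 9 Leiden clusters (y axis, with 2 of their leading genes) for the WT library (black) and the library labelled PADI4 cKO (red), with exact 95% Poisson intervals in grey. Ednra and Kitl peak in cluster 7 at 183 and 670 CPM in WT, Kit in cluster 8 at 32.4 CPM, and Edn1 in clusters 1 and 11.

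Ednrb (chr14:103814625-103844402, minus strand, 8 exons), the melanocyte receptor, was near the level that the free RNA estimate allows in the epithelium. All epithelial cells together gave 21 UMIs in WT and 15 in the library labelled PADI4 cKO, that is 0.165 and 0.116 CPM. By that estimate free RNA could have given up to 0.155 and 0.113 CPM. In the IRS-like cells 0 of 646 WT cells carried a UMI, which by a limit of 3 counts allows up to 0.464% of cells with a UMI, and does not bound the share of cells that express the gene. Cluster 7 held 12 and 9 of these UMIs, at 0.917 and 0.644 CPM. The melanocyte-like cells held 531 CPM (187 UMIs, 92.6% of 27 cells) and 185 CPM (46 UMIs, 75% of 12 cells). In those same cells Dct was at 7567 and 4067 CPM, so that both libraries' melanocyte-like cells carried the defining markers at unequal levels. Keratinocyte RNA in them mostly ran the other way, with Krt5 at 287 and 669 CPM and Trp63 at 210 and 431 CPM. Krt14 was at 250 and 456 CPM and Dsp at 139 and 137 CPM, at medians of 8170 and 21954 UMIs per cell. The fibroblast-like cells gave 0 UMIs of Ednrb in WT and 69 UMIs, in 30.4% of 23 cells, in the other library, where 1 cell held 32 of them. Fewer than 50 cells a library stand behind each of these non-epithelial values.

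Some levels differed between GL-like cells by the phase they were called. Phases were scored per cell from cell cycle genes and count free RNA as well, and no cycling is read from these calls alone. Among the WT GL-like cells, 298 were scored as G1, and in these Kitl was at 517 CPM (495 to 540) and Ednra at 163 CPM (150 to 175), against 251 CPM (243 to 259) and 45.4 CPM (42.1 to 48.9) in the 734 scored as G2M. Kit went the other way, at 2.45 CPM (1.18 to 4.51) in G1 and 14.5 CPM (12.6 to 16.5) in G2M. In the library labelled PADI4 cKO the same order was seen for all 3 genes, with 414 against 221 CPM for Kitl, 205 against 35.9 CPM for Ednra and 1.32 against 12.02 CPM for Kit. Edn1 in the LPC-like cells was at 90.0 CPM in G1 and 83.9 CPM in G2M in WT, with overlapping intervals. The part of phase in the contrast between clusters 7 and 8 was not tested.

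The libraries were then compared, gene by gene, as the log2 of the CPM in the library labelled PADI4 cKO over that in WT. A ratio was taken where a gene had at least 100 UMIs in a class over both libraries, which 32 of the 66 pairs of gene and class met, and the fold threshold of the study, 0.5 on the log2 scale, was passed by 6 of them, beside 5.72% of the pairs of all genes and these 11 classes. Over all epithelial cells 0 of the 5 genes with enough UMIs passed 0.5, where 5.2% of 14901 genes did. Kit was at −0.07 (95% interval −0.21 to 0.08), Kitl at −0.04 (−0.07 to −0.02), Edn1 at 0.23 (0.17 to 0.29), Edn2 at −0.04 (−0.11 to 0.03) and Ednra at −0.31 (−0.39 to −0.23). In the GL-like cells 1 of 5 passed, against 2.91% of genes. In the LPC-like (4.54% of genes), IRS-like (3.09%) and Cx-like cells (7.78%) 0 of 3, 0 of 3 and 0 of 2 did, and in the ORS-like cells (5.28%) 1 of 3 and in the CL-like cells (7.05%) 1 of 2. In the IFE-like (10.2%), uHF-like (8.19%) and Krt8 and Krt18 cells (3.5%) 0 of 3 passed in each, and in the SG-like cells (5.46%) 0 of 2. In the Med-like cells all 3 of the genes with enough UMIs, Kit, Kitl and Ednra, passed, where 7.76% of 8385 genes did. Since the genes had been picked with these data in view, nothing is read from the counts.

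Kitl in the Med-like cells had the widest gap between the libraries of these 32 pairs but for Ednra. It stood at 729 CPM in WT and 283 CPM in the library labelled PADI4 cKO, a log2 ratio of −1.37 (−1.46 to −1.27). Ednra in the same cells stood at 185 and 70.9 CPM, a ratio of −1.38 (−1.57 to −1.19). Kit went the other way there, with 37 and 66 UMIs, 8.57 and 14.9 CPM and a ratio of 0.80 (0.20 to 1.42), but between Xist cells its ratio was 0.42 (−0.45 to 1.40) and in the Med-like cells of cluster 7 it was 0.19 (−0.82 to 1.204), with intervals that included 0, while outside cluster 7 it was 1.09 (0.30 to 1.94). The Med-like cells were divided between cluster 7 and other clusters, and most of the Kitl and Ednra gap lay within cluster 7. Taken alone, the Med-like cells of cluster 7 gave −1.47 for Kitl and −1.28 for Ednra, and those outside it −0.23 and −0.96, the latter from 23.6 CPM in WT. Over the whole of cluster 7 (740 and 708 cells) the ratios were −0.74 (−0.79 to −0.69) for Kitl and −0.41 (−0.50 to −0.33) for Ednra. The 10 Med-like cells with the most Kitl UMIs held 24.8% of them in WT and 34.2% in the other library. For Ednra the 10 highest held 27.7% and 44.1%, and 44.0% and 25.2% of the Med-like cells carried an Ednra UMI, so that its ratio rests on fewer cells.

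The split of the WT library by sex showed that these 2 genes also differed between WT cells. In the Med-like class, Kitl was at 937 CPM in the 144 WT cells with Y-linked UMIs alone, 481 CPM in the 75 WT cells with Xist alone and 283 CPM in the 229 Xist cells of the other library. The gap within WT, −0.96 (−1.10 to −0.83), stood beside −0.76 (−0.91 to −0.62) between the Xist cells of the 2 libraries, and these intervals overlapped. Ednra was at 216, 161 and 69.9 CPM in the same cells, with −0.43 (−0.68 to −0.18) within WT and −1.20 (−1.47 to −0.93) between the Xist cells. Past 0.5 in this class were 8.1% of genes within WT and 8.21% between the Xist cells. In the whole of cluster 7 Kitl was at 699, 596 and 402 CPM and Ednra at 186, 179 and 139 CPM, so that there both genes lay closer within WT than between the libraries. Sex and animal cannot be told apart within WT, nor genotype and animal between the libraries.

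**Figure D3:**
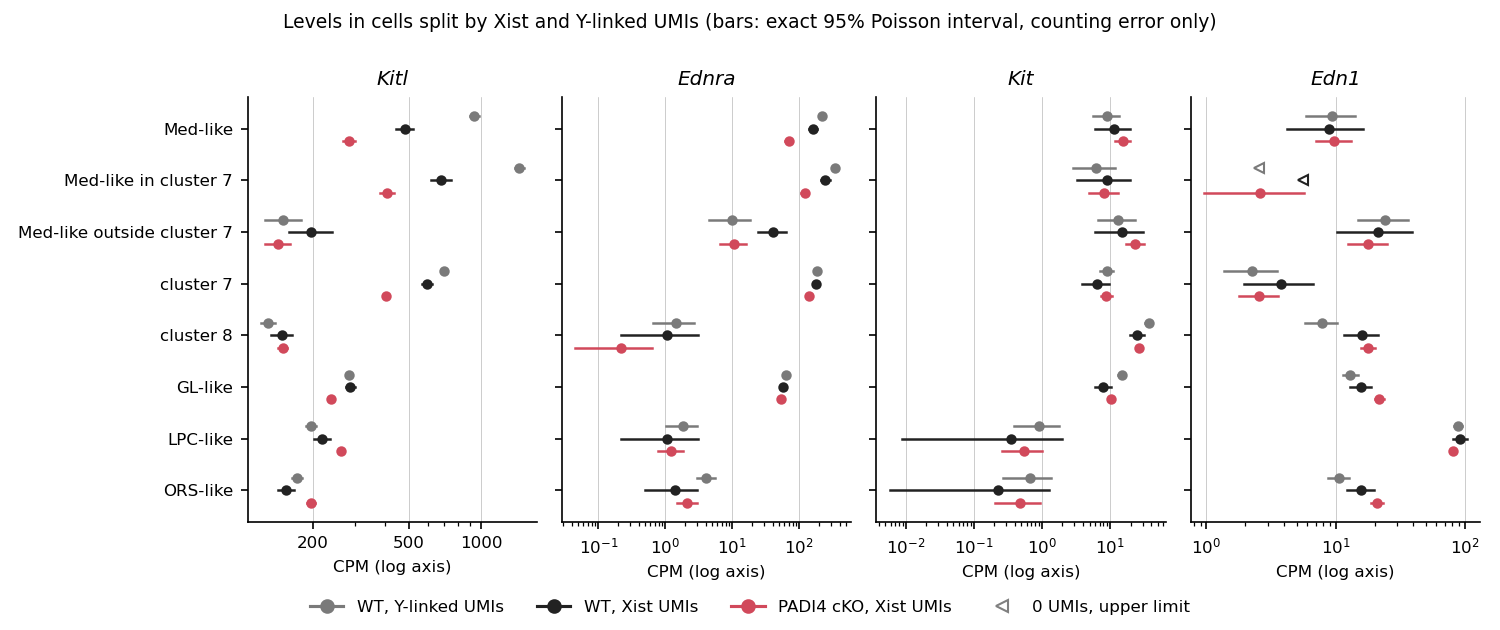
Levels of Kitl, Ednra, Kit and Edn1 (x axes, CPM, log scale) in 8 groups of cells (y axis), split into WT cells with Y-linked UMIs alone (grey), WT cells with Xist UMIs alone (black) and Xist-only cells from the library labelled PADI4 cKO (red), with exact 95% Poisson intervals and open triangles as upper limits for 0 UMIs. In the Med-like cells Kitl falls into 3 separate levels, 937, 481 and 283 CPM, and Kit in the GL-like cells is higher in the WT cells with Y-linked UMIs (14.8 CPM) than in either set of Xist cells (7.86 and 10.4 CPM).

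In the other classes Kitl lay on both sides of 0. It was lower in the library labelled PADI4 cKO in the GL-like cells, at −0.29 (−0.33 to −0.24), and the Xist cells alone gave −0.27 (−0.34 to −0.20) with 0.02 (−0.06 to 0.09) between the WT sexes. It was higher in the LPC-like cells, at 0.38 (0.31 to 0.45), with 0.27 (0.15 to 0.39) between Xist cells. In the ORS-like cells it was also higher, at 0.27 (0.19 to 0.34), with 0.34 (0.22 to 0.46) between Xist cells. In the IFE-like cells it was lower, at −0.35 (−0.52 to −0.18), with −0.18 (−0.48 to 0.14) between Xist cells. In the IRS-like cells it was at −0.10 (−0.27 to 0.06). None of these passed 0.5.

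Kit in the GL-like cells stood at −0.26 (−0.48 to −0.05), but this changed sign among cells of the same sex. WT cells with Y-linked UMIs were at 14.8 CPM and WT cells with Xist at 7.86 CPM, a ratio of −0.91 (−1.36 to −0.49) within WT, and the Xist cells of the 2 libraries gave 0.40 (−0.01 to 0.84). In cluster 8 the ratio between the libraries was −0.27 (−0.49 to −0.06), that within WT −0.56 (−0.97 to −0.17) and that between Xist cells 0.12 (−0.26 to 0.51). In cluster 10 Kit was at 105 and 40 UMIs and −1.05 (−1.61 to −0.51), with −1.17 (−2.01 to −0.41) within WT and −0.21 (−1.07 to 0.70) between Xist cells. In the IRS-like cells the 3 ratios were 0.25 (−0.09 to 0.59), 0.37 (−0.19 to 0.90) and −0.17 (−0.67 to 0.36). In these 4 groups the interval between Xist cells included 0, so that a difference in Kit was not detectable there at this depth.

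Edn1 was higher in the library labelled PADI4 cKO in the ORS-like cells, at 12.9 and 21.3 CPM, a ratio of 0.73 (0.48 to 0.97), and in the GL-like cells, at 0.45 (0.28 to 0.63). Between Xist cells these were 0.41 (0.04 to 0.80) and 0.48 (0.19 to 0.78), and within WT 0.58 (0.13 to 1.03) and 0.27 (−0.07 to 0.61). In the LPC-like cells, where Edn1 was highest, the ratio was −0.08 (−0.19 to 0.03). In the CL-like cells it was −0.68 (−1.02 to −0.35), and there the WT Xist cells, at 81.5 CPM, stood apart from the WT cells with Y-linked UMIs, at 40.1 CPM, and from the Xist cells of the other library, at 43.6 CPM. Edn2 in the ORS-like cells had a ratio of 0.00 (−0.10 to 0.11) over all cells of the class, but −0.24 (−0.40 to −0.08) between Xist cells and 0.29 (0.12 to 0.46) within WT. In the GL-like cells it was lower, at −0.66 (−1.04 to −0.29), from 141 and 107 UMIs. Between Xist cells the GL-like ratio was 0.19 (−0.51 to 0.96). Ednra in the GL-like cells stood at −0.18 (−0.28 to −0.09) and −0.10 (−0.26 to 0.06) between Xist cells. Ednrb had too few UMIs in each epithelial class for a ratio.

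**Figure D4:**
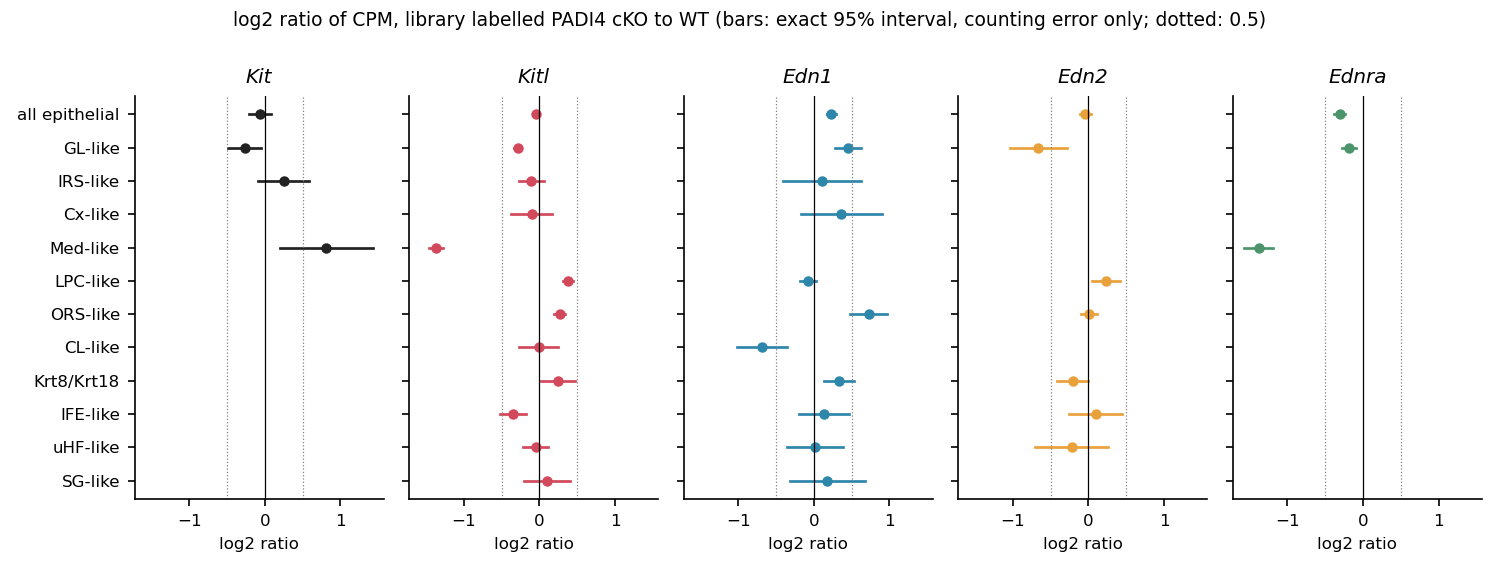
Ratio of CPM between the library labelled PADI4 cKO and WT (x axis, log2), for 5 of the genes over all epithelial cells and in 11 classes (y axis), where a gene had at least 100 UMIs. Bars are exact 95% intervals for counting error and dotted lines mark 0.5; Kitl and Ednra lie at −1.37 and −1.38 in the Med-like cells, and Kitl lies above 0 in LPC-like and ORS-like cells.

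Of 22 Kit pathway genes (among them adaptors, kinases, phosphatases, ubiquitin ligases and the sheddase Adam17), 21 had enough UMIs over all epithelial cells. Of these, 0 passed 0.5 in either direction, beside 5.2% of all genes. Their median ratio was 0.00, beside −0.01 over all genes. The highest counts of this list came from the adaptor gene Gab1 (109 and 110 CPM), the ubiquitin ligase genes Cblb (107 and 112 CPM) and Cbl (96.9 and 96.3 CPM), Grb2 (83.9 and 81.4 CPM) and Pik3ca (70.8 and 70.0 CPM). Such counts do not rank the genes by amount of RNA. In the Med-like cells 3 of 14 passed 0.5, beside 7.76% of all genes, with the Src family kinase gene Fyn at 0.58 (0.38 to 0.78), Pik3r1, a regulatory subunit of the phosphatidylinositol kinase, at −0.58 (−0.83 to −0.34) and Jak2 at −0.78 (−1.19 to −0.39). Their median in this class was −0.12, beside −0.01 over all genes. In the CL-like cells 2 of 13 passed, beside 7.05%, Jak2 at −0.58 (−0.98 to −0.18) and the transcription factor gene Stat5b at −0.55 (−1.02 to −0.09), with a median of −0.20. In the IFE-like cells 1 of 15 did, Fyn at 0.72 (0.43 to 1.001), beside 10.2% of all genes, and in the uHF-like cells 1 of 16, the signalling inhibitor gene Socs1 at 0.50 (−0.06 to 1.07), beside 8.19%. In the GL-like (2.91% of all genes), LPC-like (4.54%), ORS-like (5.28%) and IRS-like cells (3.09%) 0 of 19, 0 of 19, 0 of 18 and 0 of 15 passed. In the SG-like (5.46%), Krt8 and Krt18 (3.5%) and Cx-like cells (7.78%) 0 of 14, 0 of 17 and 0 of 9 did.

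Of 23 endothelin pathway genes 18 had enough UMIs over all epithelial cells, and 1 passed 0.5, beside 5.2% of all genes. This was Ecel1, a relative of the converting enzymes, at 2.21 and 3.82 CPM and 0.79 (0.58 to 1.01). Their median was 0.06, beside −0.01 over all genes. Ece1, which cuts the endothelin precursors, was found at 69.4 and 70.0 CPM over all epithelial cells, with its highest WT level in the CL-like cells (173 CPM) and with 116 CPM in the ORS-like cells, where Edn2 was highest. Mme, a membrane peptidase that degrades small peptides, was highest in the WT LPC-like cells (77.8 CPM), where Edn1 was highest. The G protein genes Gnai2 (187 and 184 CPM), Gnaq (179 and 186 CPM) and Gnai3 (114 and 107 CPM) and the kinase gene Prkca (113 and 126 CPM) gave the highest counts of this list, which again do not rank the genes by amount of RNA. In the GL-like cells 2 of 17 passed 0.5, beside 2.91% of all genes, Ecel1 at 0.65 and the phospholipase gene Plcb4 at 1.34 (0.87 to 1.83, 50 and 152 UMIs). In the Med-like cells 1 of 12 passed, beside 7.76%, Gna12 at −0.51 (−0.72 to −0.30). Plcb1, another phospholipase gene, passed in the IRS-like cells at 0.62 (1 of 13, beside 3.09%) and in the Cx-like cells at 0.99 (1 of 9, beside 7.78%). In the ORS-like cells 1 of 16 did, beside 5.28%, Mme at 0.84 (0.53 to 1.16), and in the CL-like cells 2 of 12, beside 7.05%, Plcb1 at −0.82 and the calcium channel gene Itpr2 at −2.56 (−3.45 to −1.77). Itpr2 was also past 0.5 in the IFE-like cells at −0.69 (1 of 12, beside 10.2%) and in the SG-like cells at −0.52 (1 of 12, beside 5.46%), and Plcb1 in the uHF-like cells at 0.52 (1 of 13, beside 8.19%). In the LPC-like cells (4.54%) 0 of 16 and in the Krt8 and Krt18 cells (3.5%) 0 of 15 passed. In most classes 0 or 1 gene of a list passed, and nothing particular to either pathway is read from these counts.

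Genes with the most similar pattern were sought by Pearson correlation of log2(CPM + 1) over 13 classes, averaged over the 2 libraries, among 13478 genes. These values are descriptions, since the classes share libraries and depth. Kit, like Ednrb highest in the melanocyte-like cells, was most like Cpne4 (r = 0.929), Rap2b, Slc38a10, Tifa and Pik3r3, and among the genes most like Ednrb were Pde10a (0.966), Plxnc1, Pax3 and Elf2. Edn2 was most like Peak1 (0.943), Lgr5, a stem cell marker of the lower follicle, Lingo1, Tbx1 and Trabd2b. Lgr5 is on the LPC list and Tbx1 on the ORS list, so the gates partly set their pattern over the classes. Edn1 was most like Lap3 (0.882), Chst2, Prss35, Sh3bp4 and Kank1, and Ednra most like 4933431K23Rik (0.867), Tubb2a, Hs3st1, Eva1c and Plce1. Kitl had no gene above 0.792 (Ankrd44), followed by Disp1, Smarcad1, Rgs12 and Ptn. By Spearman correlation 0 of the 5 genes were kept for Kit and Ednrb, 1 for Ednra, 2 for Edn2, 3 for Kitl and 4 for Edn1.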

How the data were processed

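For each of the 2 libraries the authors deposited a matrix of UMI counts, unnormalized and with empty droplets kept, from 3′ droplet sequencing. The submitters' processing notes name Cell Ranger 7.1.0, Scanpy and the build mm10. Whether intronic reads were counted is not given in the sources used here. The authors' CellBender correction and Harmony integration were not run, and 0 columns were left unmapped.

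Cells were required to have between 2000 and 60000 UMIs and between 1000 and 8000 genes, with no more than 20% mitochondrial and 1% hemoglobin UMIs and a ribosomal share between the 5th and 99th percentile. The last limit removed 591 and 397 droplets. Per cell, depth-normalized log counts were standardized (capped at 6) and averaged over each marker list. A cell took its best list at a score of 0.3 or more and a lead of 0.1. Non-epithelial cells needed 3 UMIs of 50% of a list's markers, or a cluster with 3 of them among its 10 leading genes. Clustering used 1000 variable genes without the 6 genes, cell cycle, sex-linked and Padi genes, 50 components, 15 neighbors and Leiden resolution 1.0 (Scanpy 1.11.5, 24 clusters). Doublets (Scrublet, threshold 0.2) were 3.69% and 4.02% of cells and were kept, except in 1 alternative. Free RNA was estimated from the level of collagen and hemoglobin genes in epithelial cells over that in droplets with fewer than 100 UMIs.

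Levels have exact Poisson intervals and ratios have binomial intervals conditional on the summed UMIs. The ratios were run on simulated Poisson counts, the model these intervals assume. This run cannot show that the intervals hold for UMIs that are clumped in a few cells, as in the Med-like class. Positions are GENCODE vM21 (GRCm38). In the last 500 bases of each gene's longest coding transcript, 0 of 470 stretches of 31 bases occurred in another gene. The 6 genes, the lists and the alternatives were chosen with earlier results of these data known, and the gate thresholds and 4 alternatives after the levels had been seen. Genes named are the 6, pathway genes past 0.5 or up to 5 of the highest a list, the 5 most alike for each gene, and class markers, except 1 gene that is not reported here.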

Additional observations from a re-analysis of the deposited data

Results flagged for a closer look

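In 4 of the genes the libraries differed in opposite directions in 2 classes, with intervals for counting error on opposite sides of 0, and in no case was the difference between the classes tested. Kitl was higher in the LPC-like cells of the library labelled PADI4 cKO (log2 ratio 0.38) and lower in its Med-like cells (−1.37). Edn1 was higher in its ORS-like cells (0.73) and lower in its CL-like cells (−0.68). Kit was higher in its Med-like cells (0.80) and lower in its GL-like cells (−0.26). Edn2 was higher in its LPC-like cells (0.23) and lower in its GL-like cells (−0.66). Between Xist cells Edn2 had the opposite signs, −0.26 (−0.55 to 0.03) in the LPC-like and 0.19 (−0.51 to 0.96) in the GL-like cells, with 0.65 (0.32 to 0.98) within WT in the LPC-like cells. Kit was at 0.42 (−0.45 to 1.40) in the Med-like and 0.40 (−0.01 to 0.84) in the GL-like cells between Xist cells. These 4 intervals of Edn2 and Kit between Xist cells included 0. Edn1 was at 0.41 (0.04 to 0.80) in the ORS-like and −0.90 (−1.35 to −0.44) in the CL-like cells between Xist cells. With the WT cells with Y-linked UMIs against the Xist cells of the other library, its CL-like ratio was 0.12 (−0.32 to 0.57).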

How the results depend on the processing

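No paired analysis was possible because each genotype had 1 library, and leaving out a replicate was likewise not run. With 1 library a group, depth limits what is said of low genes, Ednrb above all, and the classes rest on gates chosen after scores had been seen. No level or ratio repeated here moved beyond its interval with a lower or higher minimum of UMIs per cell, a stricter gate, centred ratios or the shared barcodes left out. No cluster took the Med list, so Leiden clusters gave no Med-like value. The causes of the changes below were not tested. Of the ratios past 0.5 in a class, those of Kitl and Ednra in the Med-like cells kept their sign in each alternative run, as did Kit in the Med-like and Edn1 in the ORS-like cells. Edn2 in the GL-like cells turned to 0.19 among Xist cells, and Edn1 in the CL-like cells to 0.12 with the WT cells with Y-linked UMIs against the Xist cells of the other library. Repeats for these last 4 ratios were added after the data had been seen. Of these, Edn1 in the ORS-like cells was at 0.30 by Leiden clusters, 0.41 with thinned cells, 0.41 among Xist cells and 0.996 with the Y-linked WT cells, Edn2 in the GL-like cells was at −1.17 with empty droplets subtracted and −0.13 with the Y-linked WT cells, and Kit in the Med-like cells of cluster 7 was at 0.19. Also below 0.5 in size were Edn1 in the CL-like cells with the stricter gate (−0.37), Edn2 in the GL-like cells by Leiden clusters (−0.37) and Kit in the Med-like cells with thinned cells (0.34) and among Xist cells (0.42).

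The Kit level of WT IRS-like cells was 11.1 CPM by Leiden clusters. Without mitochondrial and ribosomal genes in the total, WT levels were 18.4 CPM for Kit (IRS-like), 996 CPM for Kitl and 252 CPM for Ednra (Med-like), 114 CPM for Edn1 (LPC-like) and 107 CPM for Edn2 (ORS-like). With empty droplets subtracted, Kitl was at 781 CPM, Ednra at 199 CPM and Edn2 at 86.6 CPM in those classes. A looser gate gave 668 CPM for Kitl and 169 CPM for Ednra in the Med-like cells, and leaving out doublets gave 762 CPM for Kitl. With cells thinned to 2000 UMIs, the Med-like levels were 790 CPM for Kitl and 151 CPM for Ednra and the ratios −1.23 and −1.05, the ORS-like Edn2 ratio was 0.27, and the ratios over all epithelial cells were 0.29 for Edn1, 0.19 for Edn2, −0.13 for Ednra and 0.71 for Ednrb. The Ednrb ratio over all epithelial cells was 2.05 by Leiden clusters and −2.002 with empty droplets subtracted, against −0.51 (−1.57 to 0.52) over the cells as gated, where its 21 and 15 UMIs lie below the minimum of 100 for a ratio.

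Among Xist cells alone, WT levels were 17.6 CPM for Kit (IRS-like), 481 CPM for Kitl and 161 CPM for Ednra (Med-like), 91.8 CPM for Edn1 (LPC-like) and 96.2 CPM for Edn2 (ORS-like). The ratios were −0.17 for Kit (IRS-like), −0.76 for Kitl (Med-like) and −0.24 for Edn2 (ORS-like), and over all epithelial cells 0.22 for Kit, 0.023 for Kitl, −0.34 for Edn2 and −0.23 for Ednra. Added after the data had been seen, the WT cells with Y-linked UMIs against the Xist cells of the other library gave −1.73 for Kitl and −1.63 for Ednra (Med-like) and 0.11 for Edn2 over all epithelial cells. Also added, the Med-like cells of cluster 7 alone held 1120.5 CPM of Kitl and 297 CPM of Ednra in WT, with a Kitl ratio of −1.47, and those outside it 168 and 23.6 CPM, with ratios of −0.23 for Kitl and −0.96 for Ednra. With a minimum of 50 UMIs, 1.93% of genes in the GL-like cells were past 0.5 upwards and 3.05% downwards, and with 500 UMIs 0.423% and 0.412%.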

Other observations

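Cluster 18 held 45 cells of the WT library and 0 of the library labelled PADI4 cKO, led by Lsamp, Meis2 and Kcnip4, and took no list. In the fibroblast-like cells Ednra was at 46.9 CPM (33.0 to 64.7) in WT and 127 CPM (95.3 to 166) in the other library, where 1 cell held 34 of the 53 UMIs, and Kitl at 117 CPM (94.1 to 143) and 305 CPM (254 to 363), from 49 and 23 cells.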
